A study of Arabidopsis thaliana with 6 samples.

Results

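The 62 loci described here gave a signal on wild type pollen tube arrays and a signal near the array background on agp6 agp11 arrays. A probe set was taken when its deposited signal was above 60 on all 3 wild type arrays and 40 or less on all 3 agp6 agp11 arrays, and 6 loci, AGP6 and AGP11 among them, were left out by name. Of 22746 probe sets on the array, 3963 were above 60 on all wild type arrays, and the 62 are 1.56% of those. The signals themselves chose these loci, so their difference between genotypes is given as a description and was not tested. The opposite rule, above 60 on all agp6 agp11 arrays and 40 or less on all wild type arrays, was met by 56 probe sets.

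The study asked how the transcriptome of Arabidopsis thaliana pollen tubes changes when a pair of arabinogalactan proteins of pollen, AGP6 and AGP11, is missing. The mutant was a homozygous double null line made by crossing 2 lines that each carry a Ds transposon in one of the genes, and the wild type was the ecotype Nossen. Pollen of many flowers was pooled for each preparation and germinated in liquid medium in the dark for 8 h, and RNA of 3 preparations of each genotype was hybridised to Affymetrix ATH1 arrays. The mutant is 1 double mutant line, so the disruption of AGP6 and AGP11 and anything else that this line carries cannot be told apart.

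A pollen tube is a single tip-growing cell that carries the sperm cells to the ovule. It extends by delivering wall material and membrane to its apex while the cytoskeleton guides vesicles and endocytosis takes excess membrane back. Arabinogalactan proteins are heavily glycosylated proteins of the cell surface, and AGP6 and AGP11 are the members best known from pollen and pollen tubes.

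AGP6 gave signals of 31.1, 29.1 and 15.1 on the agp6 agp11 arrays, against 13313, 13677 and 9597 on the wild type arrays. AGP11 gave 34.7, 40.4 and 32.5 in agp6 agp11 tubes, against 10016, 9448 and 5604 in wild type tubes. Both disrupted genes were thus at background in the mutant, and AGP11 itself missed the rule by 1 array. The 6 arrays had median signals between 23.3 and 24.5, and Pearson correlations of log2 signals were 0.944 to 0.979 within a genotype and 0.910 to 0.951 between genotypes. Of 10 pollen tube markers 5 were named on the array, none passed the test, and their summed signal was 16955 to 17988 in agp6 agp11 tubes and 14123 to 15963 in wild type tubes. Of 7 sperm cell markers 5 were named, 2 were higher in agp6 agp11 tubes (5 with the replicate number as a block), and the sums were 16027 to 22161 in the mutant and 8833 to 11505 in wild type. Bright probe sets weigh most in these sums, among them LAT52-like of the pollen tube list and DAZ3 of the sperm cell list. LAT52-like averaged 9215 in agp6 agp11 tubes and 8426 in wild type tubes, and DAZ3 averaged 13412 and 6941. The 3 tapetum markers named, of 12, stayed at or below 24 on every array. Of 17 photosynthesis markers 3 were named, with sums of 99.6 to 128 in agp6 agp11 tubes and 62.7 to 83.6 in wild type tubes, and GAPA alone passed the test (57.4 against 23.1). The part of the sperm cell and photosynthesis markers in the signals described below was not tested. In a bulk preparation, fewer cells of a type and less RNA per cell cannot be told apart.

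The limit of 40 lies in the range where most of the array lay. On all 3 agp6 agp11 arrays 64.8% of the probe sets were at 40 or less, and the median probe set had a mean of 24.3 there. The means of the 62 loci in agp6 agp11 tubes ran from 6.74 to 38.8 with a median of 20.1, and 22 of them lay above that median probe set, 18 between it and the lower quartile of 16.7, and 22 below the quartile. The array can therefore show that these loci were near background in the mutant, but not that they were silent. The quartiles only place the loci within the background range, and signals of 40 or less were given no order. Differences that passed the test wholly below 40 are counted by the sign of the fit, with no direction read from them. Fold differences are stated as bounds on the ratio of means, the wild type mean over 40. A wild type array below its mean would give a smaller bound.

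The wild type level was modest for most of them. Wild type means ran from 65.8 to 2707, with a median of 119, while the median of the 3963 probe sets above 60 was 203. Only 2 loci had a wild type mean above 1000, 12 lay between 200 and 1000, 25 between 100 and 200, and 23 at 100 or less. The bound on the fold ran from 1.64 to 67.7, with a median of 2.97. It was at least 10 for 9 loci, at least 5 for 14 and at least 2 for 53, and for the other 9 loci it was under 2. All 62 passed the limma comparison of the genotypes as lower in agp6 agp11 tubes, beside a background of 1.67% of all probe sets (3.31% with the replicate block), and since the rule had used that contrast nothing is read from this count.

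**Figure D1:**
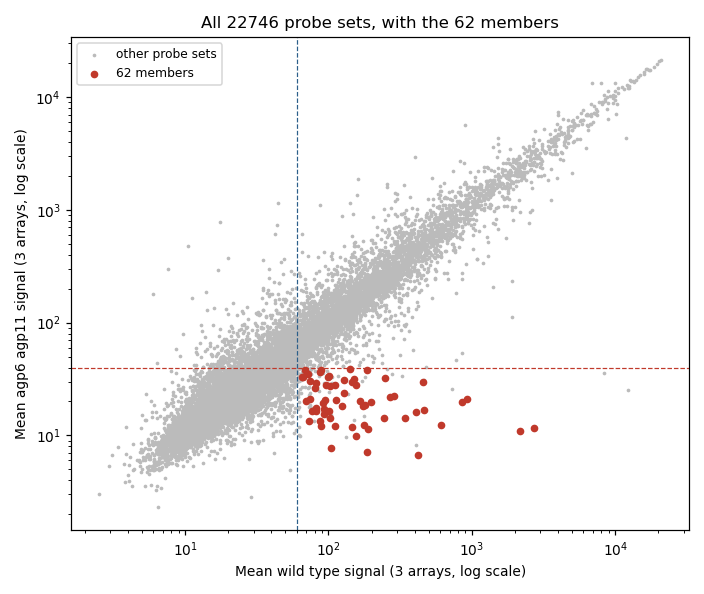
Mean signal on the 3 agp6 agp11 arrays (vertical, log scale) against the mean on the 3 wild type arrays (horizontal, log scale) for all 22746 probe sets, with the 62 loci in red and the limits of 40 and 60 dashed. Most of the 62 crowd near the corner of the limits, and 2 lie apart with wild type means above 1000.

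Close to the wild type limit, FKF1 (lowest wild type array 60.2), TWN2 (60.5) and SUC7 (60.7) came in. At3g45220 (59.8), LPLAT2 (59.4) and At1g02810 (59.4) stayed out by their lowest wild type array. Close to the mutant limit, At3g53680, At5g25940 and At5g47550 came in with highest agp6 agp11 arrays of 39.7, 39.2 and 39.0. AGP11 (40.4), ARFA1B (40.5) and At3g25810 (40.7) stayed out by their highest agp6 agp11 array. ARFA1B, a small GTPase of the ARF family, had signals of 25.9, 27.2 and 40.5 in agp6 agp11 tubes and 408, 450 and 537 in wild type tubes, so a single mutant array kept it out.

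Of the 62 probe sets 41 were named by the platform's gene table and 21 only by the study's own annotation, whose rows had been selected by fold change. For 1 of the 41 the sources named different loci, and the study's name was used. The RefSeq gene table gave a gene symbol for 22 loci, and 40 had none. It lists 3 of the 62 (At2g15650, At2g14490 and At1g62460) as pseudogenes. The probe sets of At2g15650, At5g28380 and FKF1 are of the type that can match several transcripts, and that of At2g13760 of the type that can cross-hybridise. Those of At5g28380 and At5g50565 are assigned to several genes by the platform table, so their signal cannot be given to 1 locus.

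The strongest wild type signals came largely from loci for which the sources used here give no role. Signals of different probe sets are not on a common scale, so the order given here is one of signal and not of transcript number. At2g22340, which the study annotates as a hypothetical protein, gave 9.32, 13.1 and 12.4 in agp6 agp11 tubes, against 2881, 3496 and 1744 in wild type tubes. It was at least 67.7-fold lower in the mutant, the largest bound among the 62. The study also scored this gene as down-regulated by semi-quantitative RT-PCR, on RNA of the same preparations. At2g15650, listed as a pseudogene, gave 11.7, 6.35 and 14.5 in agp6 agp11 tubes, against 2599, 2068 and 1884 in wild type tubes (at least 54.6-fold).

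The next 3 had wild type means of 928, 851 and 606. At3g44070 gave 22.2, 18.3 and 22.7 in agp6 agp11 tubes, against 1226, 1090 and 468 in wild type tubes (at least 23.2-fold). At4g14810 gave 18.4, 22.4 and 19.0 in the mutant, against 874, 1310 and 370 in wild type (at least 21.3-fold). At2g15340 gave 13.5, 11.7 and 12.2 in agp6 agp11 tubes, against 513, 436 and 869 in wild type tubes (at least 15.1-fold). The first pair of these was lowest on wild type replicate 3, while At2g15340 was highest there.

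Of the next 5 without a gene symbol, the sources used here give a family for 1. At5g61710 had 17.2, 18.2 and 15.4 in agp6 agp11 tubes, against 486, 706 and 200 in wild type tubes. At5g28380, annotated by the study as a pentatricopeptide repeat protein, a class that acts on organelle RNA, had 8.61, 6.22 and 5.38 in the mutant, against 386, 409 and 473 in wild type (at least 10.6-fold). Since its probe set is assigned to several genes, this holds for their summed signal. Semi-quantitative RT-PCR by the study scored At5g28380 as down-regulated too, on RNA of the same preparations. At4g13190 had 15.3, 14.1 and 18.5 in agp6 agp11 tubes, against 539, 369 and 321 in wild type tubes. At5g50565 had 12.2, 9.35 and 21.0 in the mutant, against 341, 347 and 333 in wild type, with a coefficient of variation of 2.02% over the wild type arrays. At2g40250 had 23.1, 24 and 20.4 in agp6 agp11 tubes, against 271, 250 and 343 in wild type tubes. The bounds of these 5 ran from 7.21-fold (At2g40250) to 11.6-fold (At5g61710).

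At5g15910 had 20.0, 14.7 and 30.5 in agp6 agp11 tubes, against 254, 203 and 353 in wild type tubes (at least 6.75-fold). At1g66800 had 14.6, 11.1 and 16.9 in the mutant, against 237, 128 and 371 in wild type (at least 6.13-fold). Both were lowest on wild type replicate 2 and highest on replicate 3. The other 3 of the 15 brightest, UBC8, MYB109 and COG0212, are described with the annotated genes.

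**Figure D2:**
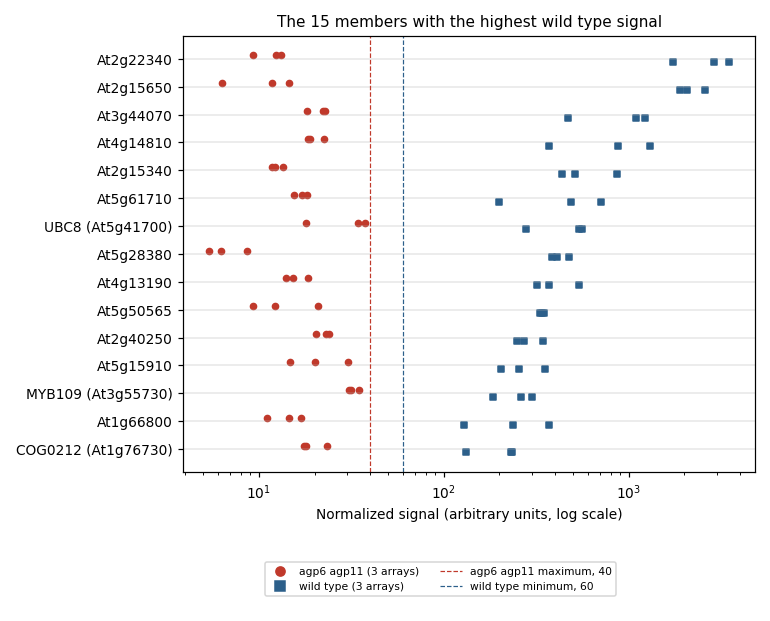
Signals of the 15 loci with the highest wild type means (rows), on the 3 agp6 agp11 arrays (red circles) and the 3 wild type arrays (blue squares), on a log axis in arbitrary units, with the limits of 40 and 60 dashed. Every red point lies left of 40, and the blue points run from 128 to 3496.

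Genes of protein turnover and signalling formed one set among the annotated loci. UBC8, a ubiquitin-conjugating enzyme that hands ubiquitin to a ligase, gave 34.2, 37.5 and 17.9 in agp6 agp11 tubes, against 556, 541 and 278 in wild type tubes (at least 11.5-fold). CNI1, also called ATL31, a RING-type ubiquitin ligase of the carbon and nitrogen response, gave 32.7, 38.9 and 27.4 in the mutant, against 87.0, 93.6 and 118 in wild type (at least 2.49-fold). FKF1, the F-box protein of a ubiquitin ligase that acts as a blue light photoreceptor in photoperiodic flowering, gave 12.3, 10.0 and 17.7 in agp6 agp11 tubes, against 78.3, 80.6 and 60.2 in wild type tubes (at least 1.83-fold). These 3 are of different ubiquitin-handling types. The share of such genes over the array was not counted, so nothing is read from their number. MEKK3, a kinase at the head of a MAP kinase cascade, gave 17.2, 15.9 and 18.1 in the mutant, against 85.8, 95.8 and 96.7 in wild type (at least 2.32-fold). At5g59650, which the study lists as a leucine-rich repeat protein kinase, gave 10.1, 11.9 and 24.8 in agp6 agp11 tubes, against 87.5, 72.1 and 121 in wild type tubes (at least 2.33-fold). MYB109 was the annotated transcription factor of the set. It gave 34.7, 31.3 and 30.6 in the mutant, against 299, 184 and 263 in wild type (at least 6.22-fold).

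Among the annotated loci, 6 were genes of the cell wall and the cytoskeleton, with low wild type signals. The share of such genes over the array was not counted, here or for the other groups, so nothing is read from the number. CLASP, a protein that binds and stabilises the growing ends of microtubules, gave 16.2, 15.3 and 23.4 in agp6 agp11 tubes, against 155, 116 and 250 in wild type tubes (at least 4.34-fold). CESA2, a catalytic subunit of the cellulose synthase of primary walls, gave 38.6, 27.8 and 27.5 in the mutant, against 144, 108 and 134 in wild type (at least 3.22-fold). LAC11, a laccase of lignin polymerisation, gave 20.6, 21.3 and 19.6 in agp6 agp11 tubes, against 90.2, 78.5 and 169 in wild type tubes. The mutant values of CESA2 reached close to the limit, while those of LAC11 did not. EXPA16, of the expansins that loosen walls, gave 38.6, 31.6 and 30.9 in the mutant, against 101, 131 and 71.2 in wild type (at least 2.53-fold). MDP40, a microtubule destabilizing protein, averaged 29.3 ± 2.89 in agp6 agp11 tubes and 81.6 ± 7.16 in wild type tubes (SD, n = 3 each). PHI-1, also named EXORDIUM like 1, averaged 33.1 ± 8.83 in the mutant and 66.9 ± 5.31 in wild type (SD, n = 3 each), one of the 9 with a bound under 2-fold. TPLATE, a subunit of an endocytic complex of the plasma membrane that pollen development needs, averaged 35.4 ± 2.18 in agp6 agp11 tubes and 71.6 ± 10.9 in wild type tubes (SD, n = 3 each), another of the 9. None of the other subunits listed for this complex passed as lower or higher (limma, adjusted p 0.437 to 0.836).

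Several genes act in plastids. HDR, the last enzyme of the plastid pathway to isoprenoids, gave 26.4, 25.3 and 36.9 in agp6 agp11 tubes, against 152, 104 and 184 in wild type tubes (at least 3.67-fold). ABC4, a phytyltransferase of phylloquinone synthesis, gave 33.9, 27.6 and 21.0 in the mutant, against 124, 111 and 73.6 in wild type (at least 2.58-fold). TY1, a thioredoxin of the y type, which reduces disulfides in plastid proteins, gave 25.1, 26.9 and 32.6 in agp6 agp11 tubes, against 104, 113 and 70.6 in wild type tubes (at least 2.40-fold). COG0212, known by the number of its orthologous group, gave 17.9, 17.6 and 23.5 in the mutant, against 230, 235 and 132 in wild type (at least 4.97-fold). Of these 4, HDR was highest on wild type replicate 3 and the other 3 were lowest there.

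Metabolism, transport and translation contributed 6 more genes. SUC7, of the sucrose transporter family, gave 11.8, 8.24 and 9.71 in agp6 agp11 tubes, against 238, 60.7 and 171 in wild type tubes (at least 3.91-fold). Its highest wild type array was 3.92 times its lowest, the widest spread of the 62. AAH, the allantoate amidohydrolase that releases nitrogen from purine breakdown products, gave 29.3, 36.6 and 29.5 in the mutant, against 172, 191 and 90.0 in wild type (at least 3.78-fold). BMY3, a protein of the beta-amylase family also called BAM9, gave 20.2, 18.4 and 23.5 in agp6 agp11 tubes, against 92.8, 67.8 and 124 in wild type tubes (at least 2.37-fold). PUT2, a polyamine uptake transporter, gave 38.7, 38.4 and 37.0 in the mutant, against 88.4, 87.4 and 88.7 in wild type (at least 2.20-fold). Its wild type arrays differed by a factor of only 1.01. PSAT1, an acyltransferase that makes sterol esters from phospholipids, gave 14.9, 13 and 8.34 in agp6 agp11 tubes, against 93.1, 61.3 and 110 in wild type tubes (at least 2.20-fold). TWN2, a valyl-tRNA synthetase, averaged 32.9 ± 3.45 in the mutant and 65.8 ± 4.67 in wild type (SD, n = 3 each), the lowest wild type mean of the 62.

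**Figure D3:**
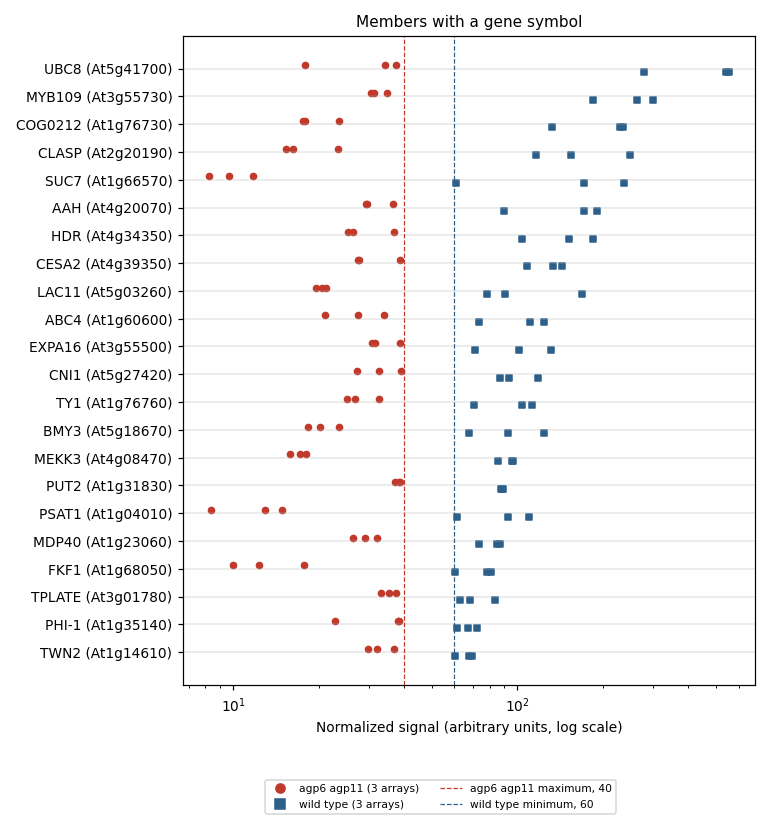
Signals of the 22 loci with a gene symbol (rows, by wild type mean), on the 3 agp6 agp11 arrays (red circles) and the 3 wild type arrays (blue squares), on a log axis in arbitrary units, with the limits of 40 and 60 dashed. UBC8 and MYB109 lie farthest right, and the rows from PUT2 downwards have wild type means below 90.

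The loci with no gene symbol that are not among the 15 brightest had wild type means of 188 (At5g37970) down to 68.6 (At5g25940). At5g47550, At3g53680 and At5g25940 were close to the limit in the mutant, with agp6 agp11 means of 37.9, 38.8 and 38.4, against wild type means of 185, 140 and 68.6. At5g52420, an unknown protein in the study's annotation, had means of 18.2 in agp6 agp11 tubes and 125 in wild type tubes.

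The wild type replicates did not rank these loci as they ranked other expressed probe sets. Of the 62, 30 (48.4%) were highest on wild type replicate 3, 19 on replicate 2 and 13 on replicate 1. Among all 3963 probe sets above 60 on the wild type arrays, replicate 3 was the highest for 30.4% and the lowest for 51.8%. The median log2 ratio of replicate 3 to the mean of the other wild type arrays was 0.10 for the 62 loci and -0.13 for the 3963 probe sets, and for replicate 2 it was -0.10 and 0.03. The 15 brightest did not share this, since 9 of them were lowest on replicate 3 and 5 highest. The median coefficient of variation over the wild type arrays was 24.7% for the 62 and 19.5% for the 3963, and in 15 of the 62 the highest wild type array exceeded the lowest by more than 2 times. These shares are descriptions, since the rule used the wild type signals. The sets were also not matched for level, with median wild type means of 119 for the 62 and 203 for the 3963.

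**Figure D4:**
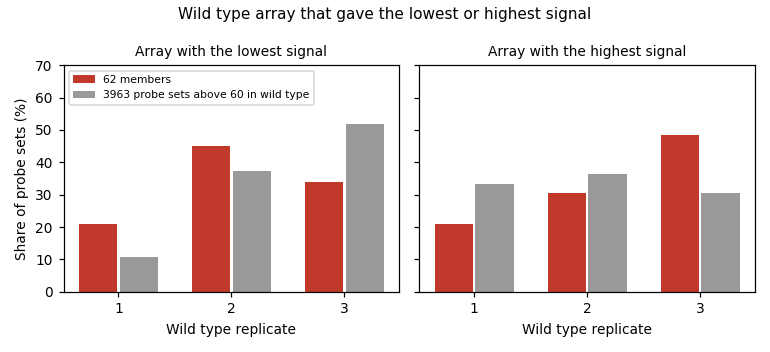
Share of probe sets (vertical, percent) for which each wild type replicate gave the lowest (left) or the highest (right) signal of the 3 wild type arrays, for the 62 loci in red and for the 3963 probe sets above 60 in wild type in grey. Replicate 3 was highest for 48.4% of the 62 loci against 30.4% of the 3963, and lowest for 33.9% against 51.8%.

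Position on the chromosome was not used by the rule. The 62 loci lay on all chromosomes, with 17 on chromosome 1, 10 on 2, 8 on 3, 10 on 4 and 17 on 5. In the gene order of TAIR10.1, another of the 62 lay within 100 kb of 10 of them (16.1%), while 10.4% of 14036 other named loci had one of the 62 within that distance. The 10 formed 5 pairs, and At5g59650 and At5g59660 were direct neighbours. At5g59660 gave 29.3, 21.0 and 12.9 in agp6 agp11 tubes, against 75.5, 69.2 and 79.5 in wild type tubes. COG0212 and TY1 had 3 genes between them. At4g13190 and At4g13230 had 5 between them, and At4g13230 gave 22, 21.0 and 17.9 in the mutant, against 61.2, 80.2 and 68.9 in wild type. The other pairs were wider apart. At1g62460 and At1g62660 had 24 genes between them. At1g62460 gave 13.7, 10.3 and 12.3 in agp6 agp11 tubes, against 88.3, 89.7 and 153 in wild type tubes. At1g62660 gave 31.9, 26.5 and 26.2 in the mutant, against 139, 122 and 202 in wild type. SUC7 and At1g66800 had 25 genes between them.

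The disrupted genes themselves lie on chromosomes 3 and 5. TPLATE had 8 genes between it and AGP11, and the next of the 62 on chromosome 3, At3g44070, had 4895. On chromosome 5, At5g15910 and At5g16220 were the nearest to AGP6, with 200 and 236 genes between. Whether the position of TPLATE has a part in its signal was not tested.

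Flanking loci were chosen by position, but loci that themselves met the rule were skipped, and the remaining ones were tested. The skipped loci are lower in the mutant, so the lower count is held down, as it is for background loci outside the rule. The nearest locus on each side with a probe set named by the platform table gave 121 neighbours, of which 51 flanking places had no annotated gene in between. In the fit over all probe sets, 4 neighbours (3.31%) were lower and 5 (4.13%) higher in agp6 agp11 tubes, beside a background of 1.30% lower and 2.08% higher over the 13220 named loci outside the rule. With the replicate number as a block 9 were lower and 8 higher. There 3.31% of all probe sets, those meeting the rule included, were lower and 5.03% higher. With names from the study's annotation rows added, 5 were lower and 8 higher, beside 2.20% and 3.23% of the loci so named. Their median log2 difference was -0.02, against 0.04 for those 13220 loci, a median over loci that differed in both directions. None of the 4 lower calls was made without replicate 1 or 2 of either genotype. Lower calls over all probe sets also fell in these settings, from 380 to between 181 and 267. The lost calls therefore do not show that the differences rest on particular arrays.

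The smallest adjusted p among the 9 called neighbours, with a difference opposite in direction to that of the locus it flanks, stood beside At5g15910. TBL19, one of the TRICHOME BIREFRINGENCE-LIKE proteins, a family known for acetylating wall polysaccharides, gave 98.4, 124 and 62.8 in agp6 agp11 tubes, against 11.5, 12.9 and 14.5 in wild type tubes. It was thus near background in wild type and at least 2.37-fold higher in the mutant, the mutant mean over 40 (limma, adjusted p = 0.000335). The second measured locus on that side, TBL21, gave 36.0, 49.2 and 26.8 in the mutant, against 11.3, 5.96 and 6.78 in wild type. It passed as higher (limma, adjusted p = 0.00234), but its mutant mean of 37.3 was below 40, so no fold is given.

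Beside At5g59650 and At5g59660 the flanking locus At5g59640 was lower. It gave 11.3, 14.4 and 17.7 in agp6 agp11 tubes, against 39.4, 57.2 and 24.7 in wild type tubes (limma, adjusted p = 0.0286). Its bound was 1.01-fold, since the wild type mean was 40.4 and some of the wild type signals were themselves below 40. On the other side At5g59680, the second measured locus there that is not itself one of the 62, gave 39.3, 30.1 and 38.5 in the mutant, against 10.2, 8.98 and 6.54 in wild type. It passed with a positive sign (limma, adjusted p = 0.000568), but all 6 signals were below 40, so neither a fold nor a direction is read. The call of At5g59640 was lost without replicate 1 or 2 of either genotype (adjusted p up to 0.158).

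The other 3 lower neighbours had wild type signals between 55.0 and 119. At1g62480, a vacuolar calcium-binding protein-related gene in the study's annotation and next to At1g62460, gave 34.8, 26.8 and 28.9 in agp6 agp11 tubes, against 55.0, 75.4 and 57.7 in wild type tubes (at least 1.57-fold, limma, adjusted p = 0.0210). At2g41410, annotated there as an EF-hand calcium-binding protein and with 5 genes between it and At2g41440, gave 47.0, 40.2 and 31.5 in the mutant, against 76.9, 86.8 and 68.7 in wild type (limma, adjusted p = 0.0380). At5g41685, 1 gene from UBC8, gave 51.5, 59.5 and 52.9 in agp6 agp11 tubes, against 106, 119 and 104 in wild type tubes (limma, adjusted p = 0.0225). In each of these 3 the genotypes did not overlap, but the 3 were picked by their calls, so nothing is read from this. The call of At1g62480 was lost without replicate 1 or 2 of either genotype (adjusted p 0.0546 to 0.0860), that of At5g41685 also without agp6 agp11 replicate 3 (up to 0.121), and that of At2g41410 when any 1 array was left out (up to 0.171).

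Among the higher neighbours, At5g02360 and At1g23070 kept their calls without any single array. At5g02360, next to At5g02370, gave 22.2, 14.7 and 33.0 in agp6 agp11 tubes, against 4.32, 5.30 and 6.27 in wild type tubes (limma, adjusted p = 0.00415). All 6 of its signals were below 40, so neither a fold nor a direction is read. At1g23070, next to MDP40, gave 39.1, 46.6 and 38.5 in the mutant, against 16.4, 19.6 and 18.1 in wild type (at least 1.03-fold, limma, adjusted p = 0.00352). At5g27430, next to CNI1, gave 75.2, 78.8 and 68.4 in agp6 agp11 tubes, against 24.9, 34.3 and 36.9 in wild type tubes (at least 1.85-fold, limma, adjusted p = 0.0105), and the call was lost without replicate 1 of agp6 agp11 (adjusted p = 0.0572) or of wild type (0.0814). At3g44050, 1 gene from At3g44070, was the strongly expressed one, with 996, 691 and 815 in the mutant against 352, 259 and 430 in wild type (limma, adjusted p = 0.0383), a call lost under quantile normalization (adjusted p = 0.116), median centring (0.0502) and an offset of 32 (0.0661), and when any 1 array but wild type replicate 3 was left out (up to 0.175). Of the 51 directly adjacent neighbours, 2 were lower and 4 higher. In 6 of the 9 called neighbours at least one genotype was at 40 or less on all its arrays.

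Among the next 2 measured loci on each side, 4 passed as lower and 3 as higher, of which TBL21 and At5g59680 are given above. CHB3, a SWI3-type subunit of chromatin remodelling complexes, had means of 40.1 in agp6 agp11 tubes and 87.9 in wild type tubes (limma, adjusted p = 0.0229). At1g34660 had means of 16.9 in the mutant and 53.7 in wild type (at least 1.34-fold, limma, adjusted p = 0.00284). At4g19380 had means of 9.94 in agp6 agp11 tubes and 40.9 in wild type tubes (at least 1.02-fold, limma, adjusted p = 0.000872). The lower call of At3g44770 (limma, adjusted p = 0.0197) lay wholly below 40, with means of 15.7 in the mutant and 34.6 in wild type. No direction is read from it. At4g09620 was the only one of the 7 with signals above 40 on every array, and it was higher, with means of 2592 in agp6 agp11 tubes and 876 in wild type tubes (log2 difference 1.55 ± 0.26, SE, limma, adjusted p = 0.0104). Without 1 array the call of CHB3 was lost for replicate 1 or 3 of agp6 agp11 or 1 or 2 of wild type (adjusted p up to 0.122), that of At3g44770 for replicate 1 or 2 of agp6 agp11 or 1 or 3 of wild type (up to 0.114), and that of At4g09620 for agp6 agp11 replicate 1 or wild type replicate 1 or 2 (up to 0.0705).

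**Figure D5:**
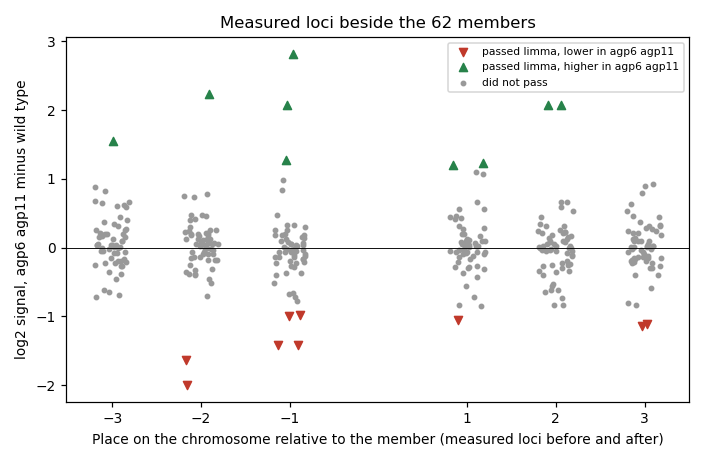
Fitted difference in log2 signal, agp6 agp11 minus wild type (vertical, signals of 40 or less included), of the measured loci in the 3 nearest places before (-3 to -1) and after (1 to 3) each of the 62 loci. Most points lie near 0, red triangles mark loci that passed as lower and green triangles loci that passed as higher, and the highest point at -1 is TBL19 at 2.82. A locus beside several of the 62 is drawn once for each.

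Genes of the same family, pathway or complex as the annotated loci were counted from lists. The 14 lists, each built around 1 of the 62, hold 96 genes. Of these, 18 further genes were annotated and measured, and 2 were lower and 4 higher in agp6 agp11 tubes (2 and 6 with the replicate block). Of the higher calls, those of MKK2 and MPK4 lay wholly below 40, so no direction is read from them. The background was 1.67% lower and 2.01% higher over all probe sets. A further 10 measured loci of these lists have no symbol in the gene table and are not among the 18, and none of them passed (limma, adjusted p 0.437 to 0.976, or with the replicate block, and none at an unadjusted p under 0.05). Of the 18 genes 8 were named only through annotation rows selected by fold change, among them 5 of the 6 called, so the count is not comparable with the background.

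Of 7 genes listed for the plastid isoprenoid pathway only 2 were named, HDR and ISPD. Both were named only through rows selected by fold change, so the pathway as a whole was not measured. ISPD, the enzyme that acts upstream of HDR, was lower in the mutant, like HDR. It gave 18.7, 14.4 and 11.6 in agp6 agp11 tubes, against 53.2, 47.8 and 66.1 in wild type tubes (at least 1.39-fold lower, limma, adjusted p = 0.00119). In the photoperiod module of FKF1, CDF1, a DOF transcription factor that FKF1 marks for degradation, gave 51.2, 41.9 and 43.9 in the mutant, against 139, 114 and 163 in wild type (log2 difference -1.59 ± 0.22, SE, limma, adjusted p = 0.00336). Neither call depended on a single array. ZTL, the paralog of FKF1 in the clock, had means of 76.5 in agp6 agp11 tubes and 45.7 in wild type tubes (limma, adjusted p = 0.144, or 0.0372 with the replicate block). GI, the partner of both, was at background in both genotypes, with means of 14.9 in the mutant and 15.5 in wild type.

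Of the kinases listed with MEKK3, 2 others were named, MKK2 and MPK4, which are known from the cascade of the related MEKK1. MKK2 gave 35.6, 33.6 and 37.8 in agp6 agp11 tubes, against 15.3, 14.7 and 15.2 in wild type tubes (limma, adjusted p = 0.00165). MPK4 gave 24.2, 34.9 and 25 in the mutant, against 12.6, 13 and 15.6 in wild type (limma, adjusted p = 0.0177), a call lost without replicate 1 or 2 of either genotype (up to 0.107). Both passed with a positive sign, but all 6 signals of both genes were below 40, so neither a fold nor a direction is read.

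In allantoin breakdown the enzymes on either side of allantoate differed. ALN, the allantoinase that makes the substrate of AAH, gave 487, 304 and 449 in agp6 agp11 tubes, against 110, 70.5 and 135 in wild type tubes (log2 difference 1.99 ± 0.31, SE, limma, adjusted p = 0.00681). AAH itself was near background in the mutant, as given above, and UGLYAH, which acts after it, was at background in both genotypes with means of 16.7 in agp6 agp11 tubes and 17.6 in wild type tubes. The call of ALN held without any single array.

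Among plastid thioredoxins, TRX-M4 averaged 73.9 ± 5.95 in agp6 agp11 tubes and 41.9 ± 1.88 in wild type tubes (SD, n = 3 each; limma, adjusted p = 0.0413, lost when any 1 array was left out and under quantile normalization or median centring). The other 4 measured, TY2, THX, ATHM2 and TRXF2, did not pass and had means between 10.8 and 35.6 in the mutant and between 13 and 31.6 in wild type. None of the 3 relatives of UBC8 passed. UBC28 averaged 1070 ± 397 in agp6 agp11 tubes and 1520 ± 566 in wild type tubes, UBC30 385 ± 12.9 in the mutant and 463 ± 22.6 in wild type, and UBC29 43.1 ± 14.0 in the mutant and 47.8 ± 9.15 in wild type (SD, n = 3 each). BAM4, from the family of BMY3, had means of 129 in agp6 agp11 tubes and 82.3 in wild type tubes (limma, adjusted p = 0.321). MYB73, a relative of MYB109, had means of 69.8 in the mutant and 41.8 in wild type (limma, adjusted p = 0.0842, or 0.0319 with the replicate block).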

How the data were processed

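Pollen tubes of wild type and agp6 agp11 plants were measured on 6 Affymetrix ATH1 arrays, 3 of each genotype. Scanned arrays were scaled by the authors to a baseline array with invariant set normalization in dChip, and they deposited intensity values from a model of the perfect match probes, on a linear scale in arbitrary units, and these values were used as deposited. Present and Absent calls were not used, and the number of arrays limits the precision. The labels do not say that preparations came from separate plants, so p-values measure only the spread between these preparations.

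Probe sets were named from the platform's gene table (13513 with 1 gene, 503 with several, 8730 with none, and 13484 matched to a locus) and from the 1999 rows used of the study's annotation table, whose rows were selected by fold change. The rule, the 62 loci and the gene lists were chosen with earlier results of these data known. Of 17 lists 3 were not used because their central gene has no annotation in the sources used here. They were lists of acid invertases, cystatins and SABATH methyltransferases. Among the cystatins 1 gene passed as higher, and among the methyltransferases 1 passed as lower, with further ones under the replicate block. None of these are in the counts given above. Gene order and symbols came from RefSeq's table for TAIR10.1, and no build is given in the files. Neighbours were taken from the platform table alone. Protein relatives and promoter and protein features were not analysed here.

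The comparison of genotypes used limma (version 3.58.1, under R 4.3.3), with lmFit and a trended eBayes whose prior degrees of freedom came to 5.54, on log2 of signals raised to at least 1, with Benjamini-Hochberg adjustment over all 22746 probe sets and a threshold of 0.05. The fit was tested on simulated data. Other steps used Python 3.11.15, numpy 2.4.6, pandas 2.3.3 and matplotlib 3.10.9. Deviations from the genotype mean correlated at 0.239, 0.347 and 0.379 between same-numbered arrays, against 0.0711 or less otherwise. The numbers given in the labels were therefore treated as pairs, and a second fit had the replicate block. The labels do not say that same-numbered preparations belong together. The pairing was read from these same signals, and p-values with the block depend on it. Alternatives were quantile normalization, median centring, an offset of 32, a filter on a mean of 40, no intensity trend, array weights, leaving out each array, other limits of the rule, and other neighbour sets.

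Array values are given for the 15 loci with the highest wild type means, for loci with another of the 62 within 100 kb, for those with a further annotated gene of their list, and for annotated loci in order of wild type mean, up to 35 in all. Neighbours are named where they pass the test.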

Additional observations from a re-analysis of the deposited data

How the results depend on the processing

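The count of 62 loci was 101 with a wild type minimum of 50, 26 with 100 and 40 with an agp6 agp11 maximum of 30, and stayed within 1.5 times under the other limits and scalings tried. Quantile normalization gave 71 and median centring 65, each with all 62 among them, and leaving out 1 array gave 65 to 79. Over all probe sets 752 were lower and 1145 higher with the replicate block, 844 and 1175 with array weights, and 181 to 365 lower and 191 to 506 higher without 1 array, against 380 and 457. For the 121 neighbours the counts were 9 lower and 8 higher with the replicate block and with array weights alike, and 0 to 3 lower and 3 to 6 higher without 1 array. They were 8 and 8 with the 3 nearest loci on each side, of 359, and 5 and 8 with names from the annotation rows, a set chosen after seeing the data. Further list genes higher numbered 2 to 3 without 1 array and 6 with the replicate block, and the 2 lower calls, ISPD and CDF1, were made in each alternative. Of the 62 loci 6 had another within 50 kb and 18 within 200 kb. The lowest counts over all probe sets came without replicate 1, at 191 lower and 212 higher without that of agp6 agp11 and 181 and 191 without that of wild type. Protein relatives and promoter features were not run, since no sequences were used here. Signals of 40 or less carry no order, which limits every statement on the mutant level.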
